A study of Mus musculus with 36 samples.

Results

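Alternative 3′ splice sites that lie close together were looked for as pairs of listed introns on the same chromosome and strand, with the same 5′ end and with 3′ ends 4 to 60 bases apart. The 219945 introns listed for every library held 8530 pairs with a shared 5′ end at any distance, and 5 of these pairs had 3′ ends 4 to 60 bases apart. They lie in Pcdh15, Cadps, Fam227a, Scn9a and Ppp1r14b. A pair was taken as measured where its shorter intron had at least 20 spliced reads in each library of a set, and by that minimum 1 of the 5 pairs, the one in Ppp1r14b, was measured in all 36 libraries.

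The libraries were polyA RNA of C57BL/6 mouse cells that lacked Zrsr2 (knockout, KO) or were wild type (WT). Sorted megakaryocyte-erythroid (MEP), granulocyte-monocyte (GMP) and common myeloid (CMP) progenitors came from 3 KO and 3 WT male littermates, each mouse giving all 3 cell types. Embryonic fibroblasts (MEF) came from 3 KO and 3 WT male embryos. Bone marrow cells without lineage markers and with Kit (Lin-Kit+) were cultured ex vivo and carried a hairpin RNA against Zrsr1, named sh1 or sh10, or a control hairpin, in KO or WT cells, with 1 library of each of the 6 kinds in each of experiments 1 and 2. The labels give no age for the mice and do not say how the Zrsr2 deficiency was made.

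An intron ends at its 3′ splice site, an AG that is usually preceded by a stretch of pyrimidines and is read early in splicing by U2AF, whose small subunit U2af1 contacts the AG. Zrsr2 and Zrsr1 are relatives of U2af1. Zrsr2 is known above all for its part in recognising the 3′ splice site of minor, U12-type introns. Where a transcript offers more than 1 AG a short distance apart, the choice between them adds or removes a few codons or shifts the reading frame.

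Zrsr2 itself had 0 to 57 spliced reads in the 18 KO libraries and 725 to 2147 in the 18 WT libraries, so the ranges did not overlap. Zrsr1 has no listed intron, and its depletion could not be checked in these counts. Libraries held 30481450 to 84832431 spliced reads. In CPM, the spliced reads of a gene or intron scaled to the total of the library, the 5 MEP markers summed to 4145 to 5310 in MEP libraries and 7.40 to 18.1 in GMP libraries, the 5 GMP markers to 25359 to 30618 in GMP libraries and the 5 MEF markers to 57394 to 83439 in MEF libraries. The 4 markers of CMP and early progenitors summed to 1323 to 1443 in CMP libraries, against at most 799 in GMP and 647 in MEP libraries. The 4 neutrophil markers summed to 1866 to 18516 in the cultured Lin-Kit+ libraries, against at most 100.3 in the sorted progenitors. The 3 macrophage markers summed to 172 to 1596 in MEF libraries and to at most 185 in the sorted progenitors, so these ranges overlapped. They summed to 861 to 2292 in the Lin-Kit+ libraries. In 10 gene lists, which cover splicing factors, hosts of U12-type introns, blood-cell transcription factors, chromatin regulators, signalling, cytoskeleton, replication and translation, 0 of 325 symbols had a pair of this kind.

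The pair that could be measured lies in Ppp1r14b (ENSMUSG00000056612.7), which encodes a phosphorylation-dependent inhibitor of protein phosphatase 1. Both introns start at base 6976628 of chromosome 19 on the plus strand of mm10. The shorter, of 230 bases, ends at 6976857 and the longer, of 287 bases, ends at 6976914, so the 2 acceptors stand 57 bases apart. In GENCODE M21 the transcripts Ppp1r14b-201, Ppp1r14b-202 and Ppp1r14b-203 use the shorter intron, Ppp1r14b-204 uses the longer and Ppp1r14b-205 splices neither. The sites are shown because they are the choice the pair describes; capitals mark the first 2 or the last 2 bases of an intron, and the letters are those of Ppp1r14b-205 in GENCODE M21. The shared 5′ site lies at chr19:6976618-6976637, the near acceptor at chr19:6976838-6976867, the 5′ site of the following intron at chr19:6976881-6976900 and the far acceptor at chr19:6976895-6976924.
Shared 5′ site: tagggtcaagGTaagctgag
Near acceptor: gctgtgttctcccttgccAGgagctgttag
5′ site after the inner exon: acccactgagGTaagctatt
Far acceptor: gctattctccttgcccttAGggtgggtgtg
Both acceptors end in AG, and each had 15 pyrimidines among the 20 bases just before its AG. Both 5′ sites begin with GTaagct. After the near acceptor the 3 transcripts that use it continue with an exon of 33 bases, from 6976858 to 6976890, and then with an intron of 91 bases that ends at 6976981. The far acceptor lies 24 bases inside that following intron. The short exon and the first bases of the following intron thus fill the space between the 2 acceptors. The 3 transcripts with the near acceptor therefore keep 33 of these 57 bases.

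The other 4 pairs were almost unread in these cells. Fam227a, on chromosome 15 with 3′ ends 5 bases apart, had 0 to 14 reads per library and 185 in all, in 32 of the 36 libraries. Cadps, a regulator of dense-core vesicle release on chromosome 14 with 3′ ends 14 bases apart, had 5 reads in 3 libraries. Scn9a, a voltage-gated sodium channel of sensory neurons on chromosome 2 with 3′ ends 4 bases apart, had 3 reads in 2 libraries. Pcdh15, a protocadherin of sensory hair cells on chromosome 10 with 3′ ends 42 bases apart, had 1 read. In each of these 4 pairs the longer intron had the same count as the shorter in every library, so the counts did not separate the near from the far site. The same held for 20 of the 21 pairs with 3′ ends 1 or 2 bases apart, which lie just outside the limit of 4 bases, and there was no pair 3 bases apart.

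At almost all annotated sites of this kind the tables list 1 of the 2 introns or neither. GENCODE M21 holds 4533 pairs of introns with a shared 5′ end and 3′ ends 4 to 60 bases apart. Both introns were listed for 5 of these pairs (0.110%), the shorter alone for 2674, the longer alone for 959 and neither for 895. Use of most close alternative acceptors was therefore not measurable from the listed introns.

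How far a count at the longer intron stands for use of the far acceptor was examined before the groups were compared. At no pair did the longer intron have more reads than the shorter, in 0 of 307080 pair-by-library values. The share, the reads counted at the longer intron as a percent of those at the shorter, was set against exon length in 1756 pairs whose 2 acceptors are separated by 1 annotated inner exon and that had at least 20 reads at the shorter intron in all libraries. Summed over the 18 progenitor libraries, the 10th percentile of the share was 95.6% for inner exons of 1 to 10 bases, 71.9% for 21 to 30, 58.6% for 31 to 40, 41.6% for 51 to 60, 13.4% for 71 to 80 and 0.488% for 91 to 100 bases. This 10th percentile thus declined from bin to bin with the length of the inner exon up to 100 bases. By definition some pairs of each bin lay under it. In 1 of the 72 pairs with inner exons of 31 to 40 bases the share was under 10%.

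**Figure D1:**
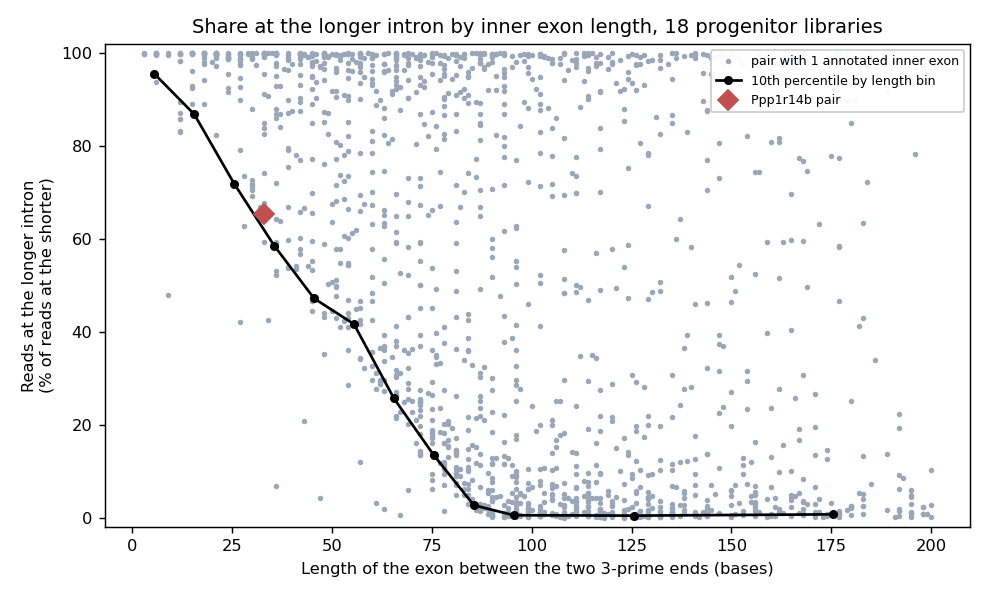
Reads counted at the longer intron, as a percent of those at the shorter, against the length of the inner exon in bases, for pairs with 1 annotated inner exon of up to 200 bases; each grey point is 1 pair summed over the 18 progenitor libraries, and the black line joins the 10th percentiles of the length bins. The Ppp1r14b pair (red diamond) stands at 33 bases and 65.3%, a little above the line of 10th percentiles, with some points well below it.

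The Ppp1r14b pair lay a little above this 10th percentile. The pairs it is set against match it in inner exon length only. Their far acceptor begins the annotated exon after the inner exon, whereas that of Ppp1r14b lies 24 bases inside the following intron. In the 71 pairs with inner exons of 28 to 38 bases, the 10th percentile was 59.4% and the median 93.0% in progenitors, and the share of Ppp1r14b was 65.3%, with 12 of the 71 pairs below it. In MEF the share was 65.2%, with 11 of 71 pairs below it, next to a 10th percentile of 59.2%. In experiment 1 of the Lin-Kit+ cells it was 61.7%, with 12 pairs below it, and in experiment 2 it was 57.0%, with 9 pairs below it. The 10th percentiles there were 58.1% in experiment 1 and 51.8% in experiment 2, so this percentile also stood lower in experiment 2. Because the share moves with exon length in this way, it is not given here as use of the far acceptor, and which part of the reads at the longer intron joined that acceptor cannot be told apart in these counts. The comparisons below are of the share itself.

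Genotype was compared first, since loss of Zrsr2 is the study's main contrast. In CMP the share was 62.4%, 63.9% and 67.8% in KO libraries, against 66.6%, 66.0% and 63.1% in WT libraries. In GMP it was 65.2%, 64.1% and 67.3% in KO libraries, against 65.0%, 64.0% and 66.7% in WT libraries. In MEP it was 66.3%, 65.2% and 67.4% in KO libraries, against 62.4%, 66.4% and 64.3% in WT libraries. The genotypes overlapped in each cell type, and in all 18 progenitor libraries the share stayed between 62.4% and 67.8%. The 95% Wilson interval of a single library reached 1.19 to 1.84 points to either side, on 2646 to 5996 reads at the shorter intron. These intervals cover counting error only.

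The difference between KO and WT was within the spread of the libraries in every progenitor type. Shares averaged 64.7% ± 2.81 in KO and 65.2% ± 1.86 in WT CMP (SD, n = 3 each), a difference of -0.495 ± 1.94 points (SE). They averaged 65.5% ± 1.61 in KO and 65.3% ± 1.37 in WT GMP, and 66.3% ± 1.10 in KO and 64.4% ± 1.98 in WT MEP (SD, n = 3 each), differences of 0.273 ± 1.22 and 1.95 ± 1.31 points (SE). The test was edgeR's quasi-likelihood test of reads at the longer intron against the remaining reads at the shorter, adjusted by Benjamini-Hochberg over all 2933 pairs with a shared 5′ end that could be tested. On the log2 odds scale the change was -0.03 in CMP (edgeR adjusted p = 0.983), 0.02 in GMP (edgeR adjusted p = 1) and 0.12 in MEP (edgeR adjusted p = 1). The 95% interval in MEP ran from -0.20 to 0.45. The edgeR intervals and p-values, here and below, rest on a spread estimated partly from all tested pairs. The SEs in points rest on the shares of the Ppp1r14b pair alone, so the 2 do not measure the same spread.

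Across all tested pairs, edgeR called 0 in each of these comparisons, a percent called of 0, and the Ppp1r14b pair was not among any calls. At an unadjusted p under 0.05 there were 197 pairs in CMP, 86 in GMP and 106 in MEP. DESeq2 called 4 pairs in CMP and 0 in GMP and MEP, and limma called 0 in each. The F test that the KO effect differs among the 3 cell types gave an edgeR adjusted p of 0.998 for Ppp1r14b and 0 calls among 2933 pairs, a percent called of 0 (134 at an unadjusted p under 0.05, 1 by DESeq2, 0 by limma). With the counts of each mouse summed over its 3 cell types, so that a mouse counted once, the share averaged 65.7% in KO and 64.8% in WT mice, a log2 odds change of 0.05 (edgeR adjusted p = 0.999). Here too edgeR called 0 of 3741 pairs, a percent called of 0 (168 at an unadjusted p under 0.05, 1 by DESeq2, 0 by limma).

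In MEF the share was 64.8%, 65.1% and 64.5% in KO libraries, against 64.0%, 66.3% and 66.3% in WT libraries. The KO values lay within the range of the WT values. The means were 64.8% ± 0.273 in KO and 65.6% ± 1.32 in WT MEF (SD, n = 3 each), a difference of -0.732 ± 0.779 points (SE). The log2 odds change was -0.05 (95% interval -0.44 to 0.34, edgeR adjusted p = 0.998), and edgeR called 0 of 2950 pairs, a percent called of 0 (130 at an unadjusted p under 0.05, 0 by limma and by DESeq2).

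**Figure D2:**
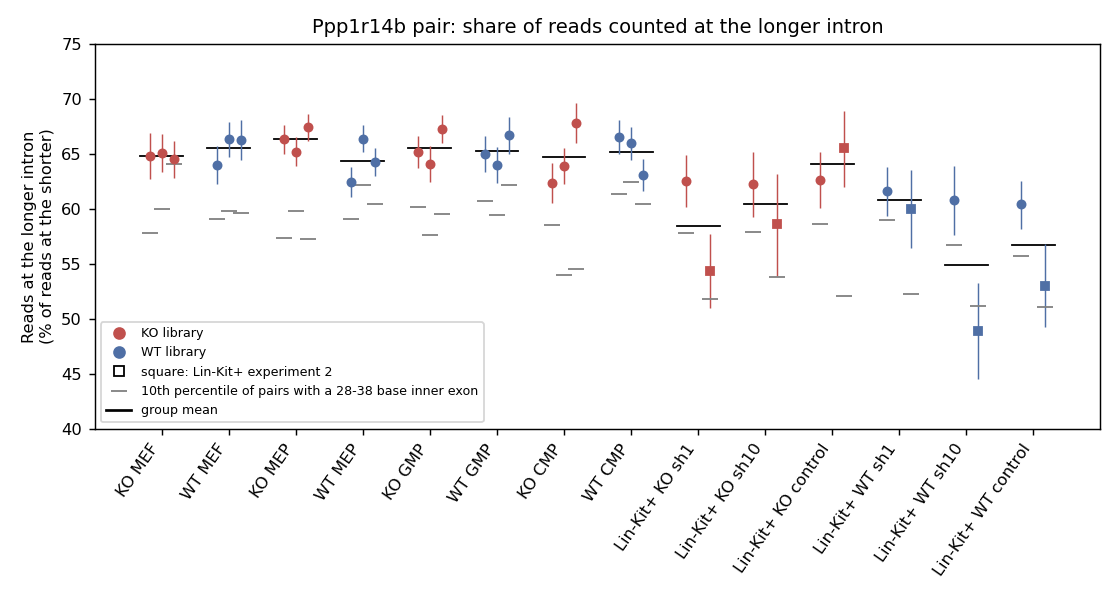
Share of reads counted at the longer Ppp1r14b intron, in percent of the reads at the shorter on an axis that starts at 40%, for each of the 36 libraries by group; points are libraries with 95% Wilson intervals, black bars are group means, squares mark Lin-Kit+ experiment 2 and grey ticks the 10th percentile of pairs with an inner exon of 28 to 38 bases in the same library. Progenitor and MEF libraries lie between 62.4% and 67.8%, and the Lin-Kit+ libraries spread from 48.9% to 65.5%.

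The Lin-Kit+ cells spread more widely, and most of the spread lay in experiment 2. With the control hairpin the share was 62.7% and 65.5% in KO libraries of experiments 1 and 2, against 60.4% and 53.0% in WT libraries. Both KO libraries lay above both WT libraries. With 2 libraries a group, such a lack of overlap, in either direction, was seen at 25.1% of the 2520 tested pairs. The means were 64.1% ± 2.02 in KO and 56.7% ± 5.23 in WT cells (SD, n = 2 each), 7.38 ± 3.96 points apart (SE). Within the experiments KO stood 2.26 points above WT in experiment 1 and 12.5 points in experiment 2. The log2 odds change of 0.44 had a 95% interval of -0.68 to 1.57 and did not pass the test (edgeR adjusted p = 1). This SE and interval, and those of the hairpin comparisons below, take the libraries as unpaired, though libraries of 1 experiment deviated together. With the experiment as a block in edgeR the unadjusted p was 0.272 here. Of the 2520 pairs edgeR called 0 in this comparison, a percent called of 0 (38 at an unadjusted p under 0.05, 0 by limma and by DESeq2).

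Reads were fewer in experiment 2. The shorter intron had 921 to 1932 reads per library in experiment 1 and 435 to 828 in experiment 2, and a library's 95% Wilson interval reached 2.18 to 3.15 points to either side in experiment 1 and 3.39 to 4.61 points in experiment 2. Ppp1r14b had 25.0 to 47.7 CPM at the shorter intron in experiment 1 and 12.1 to 22.3 in experiment 2. The level was thus lower in experiment 2, as was the 10th percentile of pairs with inner exons of 28 to 38 bases. The share was lower there in 5 of the 6 kinds of cells. The exception was KO cells with the control hairpin, at 65.5% in experiment 2 and 62.7% in experiment 1, which are 1 side of the genotype comparison. The part of level and depth in that comparison was not tested.

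Cells with a hairpin against Zrsr1 were compared with control-hairpin cells within each genotype. In KO cells the share was 62.5% and 54.3% with sh1 and 62.3% and 58.6% with sh10, against 62.7% and 65.5% with the control hairpin, in experiments 1 and 2. All 4 hairpin libraries lay below both control libraries, and groups did not overlap in this comparison at 10.4% of the 2520 tested pairs. Hairpins minus control came to -0.249 points in experiment 1 and -9.03 points in experiment 2. The log2 odds change was -0.28 (edgeR adjusted p = 1), with a 95% interval of -1.25 to 0.69. Some cell-type markers separated in the same comparison and others did not. The 3 macrophage markers summed to 1653 to 2287 CPM with the hairpins, against 986 to 1087 with the control. The 5 GMP markers summed to 1198 to 3931 with the hairpins, against 4964 to 6183 with the control. Of these 5, Elane and Ctsg separated, and Mpo, Prtn3 and Cebpe overlapped. Cebpe had 12.6 to 22.6 CPM with the hairpins, against 9.42 to 19.8 with the control. Cd34, a surface protein of early progenitors, had 53.4 to 86.6 CPM with the hairpins, against 149 to 249 with the control. It is 1 of 4 markers of CMP and early progenitors, of which Cd34 and Meis1 separated while Kit and Flt3 overlapped. The sums of the 4 overlapped, at 266 to 475 CPM with the hairpins and 342 to 677 with the control. No macrophage or GMP marker was at 0 in these groups, and the part of cell makeup in the share was not tested.

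In WT cells the share was 61.6% and 60.03% with sh1 and 60.8% and 48.9% with sh10, against 60.4% and 53.0% with the control hairpin. The hairpin and control libraries overlapped when both experiments were pooled. Within the experiments, hairpins minus control came to 0.800 points in experiment 1 and 1.45 points in experiment 2. The log2 odds change was 0.07 (edgeR adjusted p = 1). Macrophage markers summed to 1316 to 2292 CPM with the hairpins, against 861 to 1052 with the control. Of these, C1qa overlapped, at 2.88 to 34.4 CPM with the hairpins and 0.646 to 6.03 with the control. The sums of the markers of CMP and early progenitors overlapped, at 195 to 481 CPM with the hairpins and 351 to 741 with the control. GMP markers summed to 2383 to 4398 with the hairpins, against 5454 to 6254 with the control. Of the GMP markers, Elane and Ctsg were lower with the hairpins, and Mpo and Prtn3 overlapped. Cebpe went the other way, at 19.3 to 45.9 CPM with the hairpins, against 12.3 to 18.4 with the control. The difference between the hairpin effect in KO and that in WT was -5.77 ± 5.45 points (SE), a log2 odds difference of -0.35 (edgeR adjusted p = 1). Cells lacking Zrsr2 and carrying a Zrsr1 hairpin averaged 59.4%, against 56.7% in WT cells with the control hairpin, a log2 odds change of 0.16 (edgeR adjusted p = 1). The difference was 2.01 points in experiment 1 and 3.47 points in experiment 2. The comparison of sh1 with sh10 gave 59.6% with sh1 and 57.7% with sh10 and a log2 odds change of 0.12 (edgeR adjusted p = 1). The difference was 0.528 points in experiment 1 and 3.43 points in experiment 2. With 2 experiments, a direction shared by both is a description. Neutrophil markers summed to 2408 to 4520 CPM with sh1 and 5120 to 18516 with sh10, mast cell markers to 3846 to 7968 with sh1 and 1839 to 3799 with sh10, and MEP markers to 98.2 to 107.3 with sh1 and 41.5 to 63.6 with sh10. Within these sets the neutrophil marker Mmp9 and the MEP marker Car1 overlapped. GMP markers overlapped in sum, at 2053 to 4398 CPM with sh1 and 1198 to 4204 with sh10. Macrophage markers did too, at 1348 to 2292 with sh1 and 1316 to 1944 with sh10. Markers of CMP and early progenitors also overlapped, at 233 to 481 with sh1 and 195 to 293 with sh10. The part of cell makeup in these shares was not tested.

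In each of these hairpin comparisons edgeR called 0 of 2520 pairs, a percent called of 0. At an unadjusted p under 0.05 there were 80 pairs for hairpins against control in KO cells, 45 in WT cells, 59 for KO cells with a hairpin against WT control cells, 121 for sh1 against sh10 and 53 for the difference between genotypes. DESeq2 called 7 pairs between sh1 and sh10, 1 for hairpins against control in WT cells and 0 in the other 3, and limma called 1 pair for the difference between genotypes and 0 in the other 4.

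Among sorted progenitors of WT mice the group means of the Ppp1r14b share differed by less than 1 point. The share averaged 64.4% ± 1.98 in MEP, 65.3% ± 1.37 in GMP and 65.2% ± 1.86 in CMP (SD, n = 3 each). MEP minus CMP was -0.850 ± 1.57 points (SE; log2 odds change -0.05, edgeR adjusted p = 0.935), and edgeR called 1.36% of the tested pairs in that comparison. MEP minus GMP was -0.888 ± 1.39 points (SE; log2 odds change -0.06, edgeR adjusted p = 0.956), where 1.19% of pairs were called. GMP minus CMP was 0.0380 ± 1.33 points (SE; log2 odds change 0.00, edgeR adjusted p = 1), where 0.239% of pairs were called. These 3 comparisons share libraries.

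The WT Lin-Kit+ cells with the control hairpin, at 56.7%, stood below these groups, but they were cultured and prepared with another kit and were not tested against them. WT MEF had a mean share of 65.6% and the 3 WT progenitor types together 64.9%, a difference of 0.611 ± 0.961 points (SE; log2 odds change 0.04, 95% interval -0.21 to 0.29, edgeR adjusted p = 0.861). In that comparison edgeR called 19.2% of the 2842 tested pairs, and the Ppp1r14b pair was not called. MEF came from embryos and the progenitors from other animals, so cell type and source cannot be told apart.

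The level of the pair differed more between cell types than its share did. The shorter intron had 78.0, 86.4 and 89.3 CPM in KO MEP and 76.0, 83.1 and 87.6 in WT MEP. All 6 MEP libraries lay above the other 30 libraries, which reached at most 69.9. How many of all listed introns separate the MEP libraries in this way was not counted, so this is not given as particular to Ppp1r14b. The level was 58.7 ± 1.87 in KO and 59.9 ± 3.23 in WT GMP, 60.3 ± 4.95 in KO and 59.8 ± 9.29 in WT CMP, and 54.5 ± 6.57 in KO and 57.8 ± 4.90 in WT MEF (SD, n = 3 each). GMP, CMP and MEF overlapped in level. The intron before the pair in Ppp1r14b had a like level, with 77.9 ± 4.20 in KO and 75.1 ± 9.48 in WT MEP, against 53.3 ± 4.23 in KO and 54.2 ± 4.08 in WT GMP (SD, n = 3 each). Levels were not tested, and in bulk samples fewer expressing cells and less RNA per cell cannot be told apart.

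**Figure D3:**
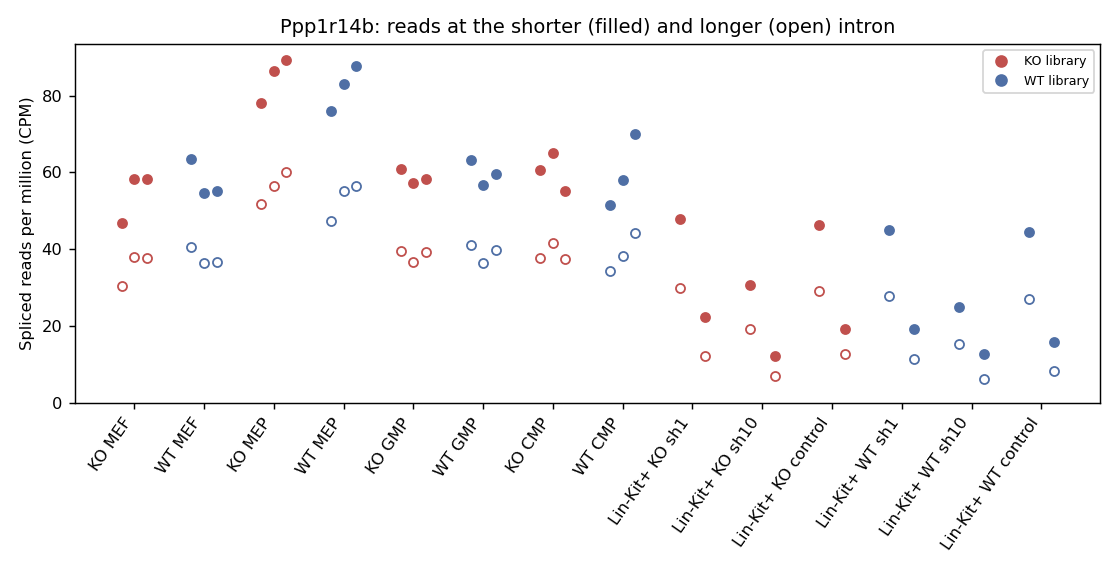
Level in CPM at the shorter (filled) and the longer (open) Ppp1r14b intron in each of the 36 libraries, by group. The 6 MEP libraries stand highest at the shorter intron, at 76.0 to 89.3, and the open points follow the filled ones.

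Reads that run into the shorter intron were few in all cells. Retention, the unspliced reads at its 2 ends as a percent of these reads plus 2 times the spliced reads, ran between 0.312% and 1.38% in the progenitor libraries and between 0.0670% and 0.313% in MEF, and it was at most 0.910% in Lin-Kit+ libraries. It averaged 1.04% ± 0.131 in KO and 0.862% ± 0.182 in WT CMP, 0.886% ± 0.530 in KO and 0.921% ± 0.400 in WT GMP, and 0.747% ± 0.265 in KO and 0.964% ± 0.326 in WT MEP (SD, n = 3 each). The genotypes overlapped in every progenitor type, and the levels of retention were not tested.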

How the data were processed

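Per the labels' protocols, polyA-selected RNA was sequenced after TruSeq preparation (progenitors, MEF) or NEBNext Ultra preparation (Lin-Kit+ cells). Per the file headers, the authors' deposited tables hold counts of reads at each end of an intron and of reads spliced across it. The submitters' processing notes name the build mm10. Aligner, counter and any use of strand: not given in the sources used here. The authors' covered fraction and retention percent were not used.

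Groups followed the labels. The members and lists were chosen with earlier results of these data known. Intron pairs were formed by coordinates, and all 219945 introns matched GENCODE M21. For each pair, reads at the longer intron and the remaining reads at the shorter were tested with edgeR 4.0.16 in R 4.3.3, with a coefficient for each library and 1 for each group. Pairs entered with at least 20 reads at the shorter intron in each library of the set and at least 20 reads of each kind over the set. P-values were adjusted by Benjamini-Hochberg over all such pairs, with a threshold of 0.05. The code was tested on simulated counts. Alternatives were limma 3.58.1 (on log2 values with a pseudocount of 0.5), DESeq2 1.42.0, other minimums, reads past both ends, only the groups compared, a replicate block and each library left out. The 5 pairs with the smallest p were to be named; 1 could be tested.

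Lin-Kit+ libraries of 1 experiment, which the labels name, deviated together (correlations of 0.196 to 0.256 in 30 of 30 pairs). Nothing in the labels says whether the 2 experiments used separate animals, and p-values there cover only variation among these libraries. For each pair, edgeR estimates the spread partly from all tested pairs. Its p-values and intervals thus do not measure the spread of the Ppp1r14b pair alone. Progenitor libraries of 1 mouse come from the same animal by design and had correlations of -0.03 to 0.05. In no group did 2 libraries hold the same counts.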

Additional observations from a re-analysis of the deposited data

How the results depend on the processing

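The Ppp1r14b pair was called in 0 of 243 comparison-by-setting values (edgeR, limma or DESeq2, lowest unadjusted p 0.272, for Lin-Kit+ KO against WT control cells with the experiment as replicate block). The log2 odds change kept its direction in 101 of 101 values from alternatives other than a left-out library and moved by at most 0.0042. Other minimums, a fit of only the groups compared and a replicate block use the same counts of the compared libraries. The direction had little room to change in those settings. With a replicate block it was -0.03 in CMP, 0.02 in GMP, 0.12 in MEP, -0.05 in MEF and 0.44 in Lin-Kit+ control cells for KO against WT, and the block changed no call. Numbers of KO and WT progenitors were not treated as pairs, with correlations over 0.1 in 0 of 9 pairs, and in 1 of 3 for MEF. MEF and progenitors share no numbers, so that comparison had no block. A fit of only the groups compared was not run for MEF, for mouse sums and for both interactions, which already hold all groups.

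Leaving out 1 library kept the direction in 88 values and turned it in 14, and the cause was not tested. The log2 odds change ranged from -0.13 to 0.043 for KO against WT CMP, from -0.038 to 0.065 in GMP and from -0.0034 to 0.090 over mouse sums. It ranged from -0.15 to 0.29 for hairpins against control in WT cells, from -0.054 to 0.38 for KO cells with a hairpin against WT control cells and from -0.058 to 0.29 for sh1 against sh10. It ranged from -0.065 to 0.045 for GMP against CMP, from -0.12 to 0.0069 for MEP against CMP and from -0.12 to 0.0049 for MEP against GMP. The libraries whose removal turned the direction were KO 1 or WT 1 in CMP, KO 3 or WT 2 in GMP, KO mouse 3 in the sums, WT CMP 3 or WT GMP 3 for GMP against CMP, and WT MEP 1 for both MEP comparisons. In Lin-Kit+ cells they were the WT control of experiment 2 for both comparisons of hairpins with it, WT sh10 of experiment 1 for hairpins in WT cells, and KO sh1 of experiment 1 or WT sh10 of experiment 2 for sh1 against sh10. Other comparisons kept their direction but moved in size: KO against WT from 0.063 to 0.19 in MEP, from -0.096 to -0.022 in MEF and from 0.23 to 0.66 in Lin-Kit+ control cells, hairpins in KO cells from -0.40 to -0.16, MEF against progenitors from 0.014 to 0.087 and hairpin by genotype from -0.57 to -0.13. Libraries of experiment 2 had 435 to 828 reads, and their shares of 48.9% to 65.5% spread further than their Wilson intervals.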
